A study of Mus musculus with 2 samples.

Results

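The complement genes examined here are 8 genes of the liver-type and stromal complement set, C3, C4b, C1s, C1ra, Cfb, Cfd, Serping1 and C2, without C1q. They were taken by name, as all gene probes that carry one of these names in the scanner files of both arrays, which gave 11 of the 55681 gene probes on the array. Of these, 10 probes for 7 genes were well above background in at least 1 channel on both arrays and were tested, and the probe of Cfd was not. Pancreatic islets of RbΔK7 mutant mice were compared with islets of control mice on 2 two-colour arrays, each with 1 mutant sample (Cy5) and 1 control sample (Cy3). The RbΔK7 allele is a knock-in whose retinoblastoma protein, the brake on entry into S phase, resists inactivation by phosphorylation. The labels call the other group only control samples, and strain, age, sex, the number of animals per sample and whether they were diabetic are not given in the sources used here. The labels name no driver that would restrict the allele to a cell type, so every cell type in the islet preparations may carry it. The islets came from collagenase digestion and hand picking, and the design counts 2 mutant and 2 control samples, grown and harvested independently.

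Complement is a cascade of secreted proteins that tags cells and particles for removal and recruits immune cells. In the classical pathway the proteases C1r and C1s, bound to C1q, cleave C4 and C2, whose fragments form an enzyme that cleaves C3. In the alternative pathway factor D cleaves factor B bound to C3, and the resulting enzyme cleaves more C3. C1 inhibitor, the product of Serping1, inactivates C1r and C1s. The liver makes most of the complement in plasma, and fibroblasts and macrophages also make several of the components in tissues.

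Beta cell genes were bright in all samples, and all 8 of the listed beta cell markers were tested. The 35 acinar and Reg genes set the mutant sample of replicate 2 apart: the log2 of their summed level was 21.24 and 17.35 in the mutant samples of replicates 1 and 2, against 20.84 and 22.21 in the control samples. Every result is therefore given for each array. No pair had its dyes exchanged, so for any given probe the genotype and the dye cannot be told apart, and precision is limited by the number of arrays. In whole islets, fewer cells of a type and less RNA per cell cannot be told apart either.

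All 10 tested complement probes were higher in the mutant on both arrays, and 2 of them passed the test: a probe of C3 and the probe of C1s rose (limma adjusted p under the threshold of 0.05 over all 22266 tested probes). Of all tested probes 0.368% rose by this rule and 0.0135% fell. Ratios above 0 on both arrays were found for 32.4% of all tested probes, and ratios below 0 on both for 25.3%. All 10 complement probes had an unadjusted limma p under 0.05 and were higher, against 8.16% of all tested probes. At least 2-fold higher values on both arrays were found for 2 complement probes, the same 2 that passed, and for 0.485% of all tested probes. Over the 7 tested genes, each by its brightest probe, the median log2 ratios of the replicate 1 and replicate 2 arrays were 0.70 and 1.33, against 0.02 and 0.02 over all tested probes. With Cfd, as all 8 genes, the medians were 0.69 and 1.25. In 6 of the 10 alternative fits no probe of the whole array passed, and the limma adjusted p there ran from 0.0754 to 0.672 for C3 and from 0.0754 to 0.707 for C1s. Other fits raised the count of complement probes that passed, to 5 without the acinar and Reg genes, 8 without the brightness filter and 10 with median centring. They raised the count over the whole array too. In these fits 172 of 22224, 324 of 55673 and 6660 of 22266 probes rose, in that order, against 82 of 22266 in the main fit.

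**Figure D1:**
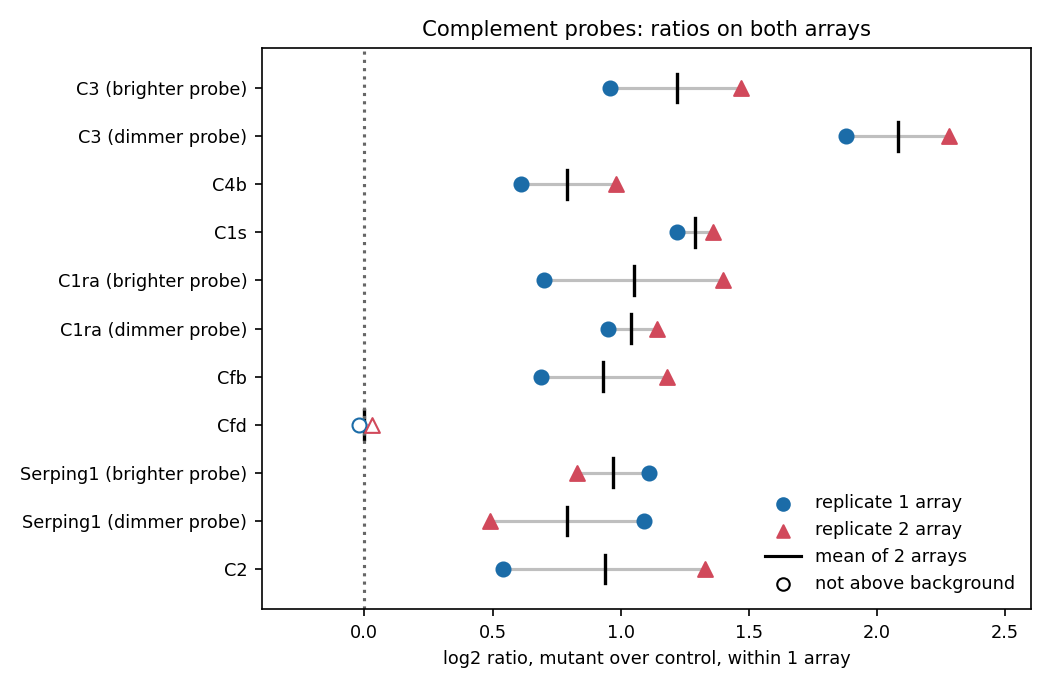
Log2 ratios of mutant over control for the 11 complement probes, with the replicate 1 array as circles, the replicate 2 array as triangles and their mean as a bar. The 10 tested probes lie between 0.54 and 1.88 on the replicate 1 array and between 0.49 and 2.28 on the replicate 2 array, and the probe of Cfd (open symbols, not well above background) lies at 0.

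C3, the component on which the pathways meet, was measured by a pair of probes whose starts are 166 bases apart in the transcript (4887 and 5053) and 262 bases apart on chromosome 17. Their sequences are shown because the sizes of their ratios differed, and both lie on the minus strand in mm9, at chr17:57343678-57343737 and chr17:57343416-57343475.
C3, probe at transcript base 4887: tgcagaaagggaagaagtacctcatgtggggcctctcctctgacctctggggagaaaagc
C3, probe at transcript base 5053: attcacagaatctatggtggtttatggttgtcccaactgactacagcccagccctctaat
The probe at base 5053, the slightly dimmer of the pair, was spotted 10 times on each array, so its value averages more spots than that of any other complement probe. Its log2 level, normalized across both arrays and channels, was 10.26 and 11.14 in the mutant samples of replicates 1 and 2, against 8.38 and 8.86 in the control samples. Both mutant samples lay above both control samples. The log2 ratios were 1.88 and 2.28, a mean of 2.08 ± 0.285 (SD, n = 2 arrays) or 4.24-fold, and C3 rose by this probe (limma adjusted p = 0.0261). It ranked 14 among all tested probes by mean ratio. Over its 10 spots the ratio ran from 1.72 to 1.99 on the replicate 1 array and from 2.19 to 2.42 on the replicate 2 array. The spots of the 2 arrays thus did not overlap, and those of an array lay closer together than the means of the arrays.

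The probe at base 4887 had 1 spot and was brighter in the control channel. Its log2 level was 10.05 and 10.63 in the mutant samples, against 9.09 and 9.16 in the control samples, and the groups did not overlap. The ratios were 0.96 and 1.47, a mean of 1.22 ± 0.362 (SD, n = 2), and it did not pass (limma adjusted p = 0.0646). Its mean ratio was thus lower than that of the other C3 probe by 0.87 on the log2 scale, with the same direction on both arrays, and why the probes differ was not tested.

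The proteases that start the classical pathway are C1s and C1r. The probe of C1s, which the reference table lists as C1s1 (chromosome 6, 124480775 to 124480834, mm9), had log2 levels of 8.64 and 9.17 in the mutant samples, against 7.42 and 7.81 in the control samples. Its groups did not overlap, and its 2 ratios were closer together than those of any other tested complement probe. They were 1.22 and 1.36, a mean of 1.29 ± 0.102 (SD, n = 2) or 2.45-fold, and C1s rose (limma adjusted p = 0.0418). The C1s probe had 1 spot, and whether it also binds RNA of a related gene was not tested. C1ra, the gene of the protease that activates C1s, had 2 probes whose means differed by 0.01 on the log2 scale. The brighter had log2 levels of 7.64 and 8.44 in the mutant samples, against 6.94 and 7.04 in the control samples, and ratios of 0.70 and 1.40 (limma adjusted p = 0.129, mean 1.05 ± 0.498, SD, n = 2). The dimmer had log2 levels of 7.70 and 8.23 in the mutant samples, against 6.75 and 7.09 in the control samples, and ratios of 0.95 and 1.14 (limma adjusted p = 0.0573, mean 1.04 ± 0.134). Of the control samples, 1 of 2 was well above background by this dimmer probe. The level of C1ra was higher in the mutant sample of each pair by both probes, but neither passed. The probe of C1rb, the near copy of C1ra, was below the brightness filter, with ratios of 0.22 and 0.27. Whether the C1ra probes also bind C1rb RNA was not tested.

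The promoter windows of C3, C1s and C1ra are shown because these are the tested complement genes whose windows were matched. They run from 250 bases before to 50 bases after the gene start in RefSeq's annotation of GRCm38.p6, a build other than the mm9 of the probe positions, and capitals mark the motifs found in them. They lie at chr17:57228087-57228386 on the minus strand for C3, chr6:124542310-124542609 on the minus strand for C1s and chr6:124512371-124512670 on the plus strand for C1ra.
C3: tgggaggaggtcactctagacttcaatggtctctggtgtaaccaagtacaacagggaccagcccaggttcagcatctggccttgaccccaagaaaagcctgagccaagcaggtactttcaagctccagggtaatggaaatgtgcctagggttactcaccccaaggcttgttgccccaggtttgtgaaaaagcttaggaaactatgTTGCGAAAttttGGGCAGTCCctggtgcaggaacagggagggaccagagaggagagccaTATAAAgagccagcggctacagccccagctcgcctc
C1s: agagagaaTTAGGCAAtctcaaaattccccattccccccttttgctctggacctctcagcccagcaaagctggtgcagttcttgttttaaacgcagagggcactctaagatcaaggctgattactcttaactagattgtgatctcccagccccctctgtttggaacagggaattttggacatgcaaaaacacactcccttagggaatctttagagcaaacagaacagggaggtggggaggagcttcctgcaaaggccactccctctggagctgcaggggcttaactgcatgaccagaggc
C1ra: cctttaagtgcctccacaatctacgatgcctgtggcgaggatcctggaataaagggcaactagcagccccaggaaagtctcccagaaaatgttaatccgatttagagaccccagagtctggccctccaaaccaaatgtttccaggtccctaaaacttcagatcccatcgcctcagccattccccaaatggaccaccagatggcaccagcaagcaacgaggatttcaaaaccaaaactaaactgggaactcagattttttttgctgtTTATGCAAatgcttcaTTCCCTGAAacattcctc
A window was also matched for Cfd, which made 4 of the 8 genes. Both strands were searched for the C/EBP motif TTGCNNAA, the interferon-gamma activated site TTCNNNGAA, the NF-kB motifs GGGNNTTCC and GGGNNNTCC, the first of which is a case of the second, the E2F motif TTNGCGC and the TATA box TATAAA. The interferon-stimulated response element was searched as GAAA, any 2 bases and GAAA. The C/EBP motif was in each of the 3 windows, at -45 in C3, -242 in C1s and 17 in C1ra, counted from the annotated start, and it is in 10.8% of all 32851 promoter windows of this length. A further C1s window in the table starts downstream, held none of these letters and is not shown. C3 also held GGGCAGTCC, a match to GGGNNNTCC, at -33 (17.8% of windows). The TATA box letters TATAAA were at 15 in C3 (13.6%), downstream of the annotated start. C1ra held an interferon-gamma activated site at 33 (8.30%). The E2F motif (6.36%), GGGNNTTCC (5.82%) and the interferon-stimulated response element (3.44%) were in none of the 3. The window of Cfd held none of these letters. A match in letters is a description and not a binding site.

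The substrates of C1s did not pass. C4b, which encodes C4, was the complement gene with the largest difference between samples of the same genotype. Its log2 level was 8.97 and 10.55 in the mutant samples, against 8.36 and 9.57 in the control samples. C4b was thus higher in the control sample of replicate 2 than in the mutant sample of replicate 1, and it was the only tested complement probe whose groups overlapped. Its ratios were 0.61 and 0.98 (limma adjusted p = 0.134, mean 0.79 ± 0.258, SD, n = 2). Its near copy C4a has no probe of that name among those analysed, and whether the C4b probe (chromosome 17, 34865328 to 34865387, mm9) also binds C4a RNA was not tested. C2, whose fragment carries the protease of the classical C3 convertase, had log2 levels of 7.92 and 9.0 in the mutant samples, against 7.38 and 7.67 in the control samples. The groups of C2 did not overlap, and its ratios were 0.54 and 1.33, the widest spread in the set (limma adjusted p = 0.182, mean 0.94 ± 0.553, SD, n = 2).

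The alternative pathway was represented by Cfb, since Cfd was not detected. Cfb, which encodes factor B, had log2 levels of 7.26 and 8.37 in the mutant samples, against 6.57 and 7.19 in the control samples. Both mutant samples lay above both control samples. The ratios of Cfb were 0.69 and 1.18 (mean 0.93 ± 0.347, SD, n = 2), and it did not pass (limma adjusted p = 0.114). Of the control samples, 1 of 2 was well above background for Cfb. With the scanner software's processed signals its mean ratio was 1.85, above the 1.77 of C1s in that setting. Cfd, which encodes factor D and is also known as the adipocyte protein adipsin, was not well above background in any of the 4 samples. Its raw mean signals were 66.1 and 65.6 in the mutant channel over local backgrounds of 54.5 and 58.0, and 34.9 and 34.4 in the control channel over backgrounds of 30.0 and 28.0. No fold change is given for it. Of the other adipocyte markers 6 of 8 were also not well above background in any sample, among them Adipoq, Lep and Plin1. Fabp4, the 1 adipocyte marker that was tested, had ratios of 1.33 and -0.01.

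Serping1, the gene of C1 inhibitor, was higher in the mutant by 2 probes, and neither passed. The probe at chr2:84605968-84607474 covers 60 bases of RNA and 1507 bases of the genome, so it joins 2 exons, and the Cfb probe (chr17:34993502-34993858, 357 bases) does so too. These junction probes are shown because they read spliced RNA.
Serping1, junction probe, minus strand: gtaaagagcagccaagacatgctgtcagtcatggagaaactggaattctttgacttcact
Cfb, junction probe, minus strand: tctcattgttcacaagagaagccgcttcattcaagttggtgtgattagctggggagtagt
The brighter Serping1 probe had log2 levels of 9.99 and 10.25 in the mutant samples, against 8.87 and 9.42 in the control samples. Its ratios were 1.11 and 0.83 (limma adjusted p = 0.0729, mean 0.97 ± 0.200, SD, n = 2). The junction probe had log2 levels of 9.27 and 9.35 in the mutant samples, against 8.18 and 8.86 in the control samples, with ratios of 1.09 and 0.49 (limma adjusted p = 0.194, mean 0.79 ± 0.429). The groups overlapped for neither probe. Serping1 was the gene of the set with its larger ratio on the replicate 1 array.

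**Figure D2:**
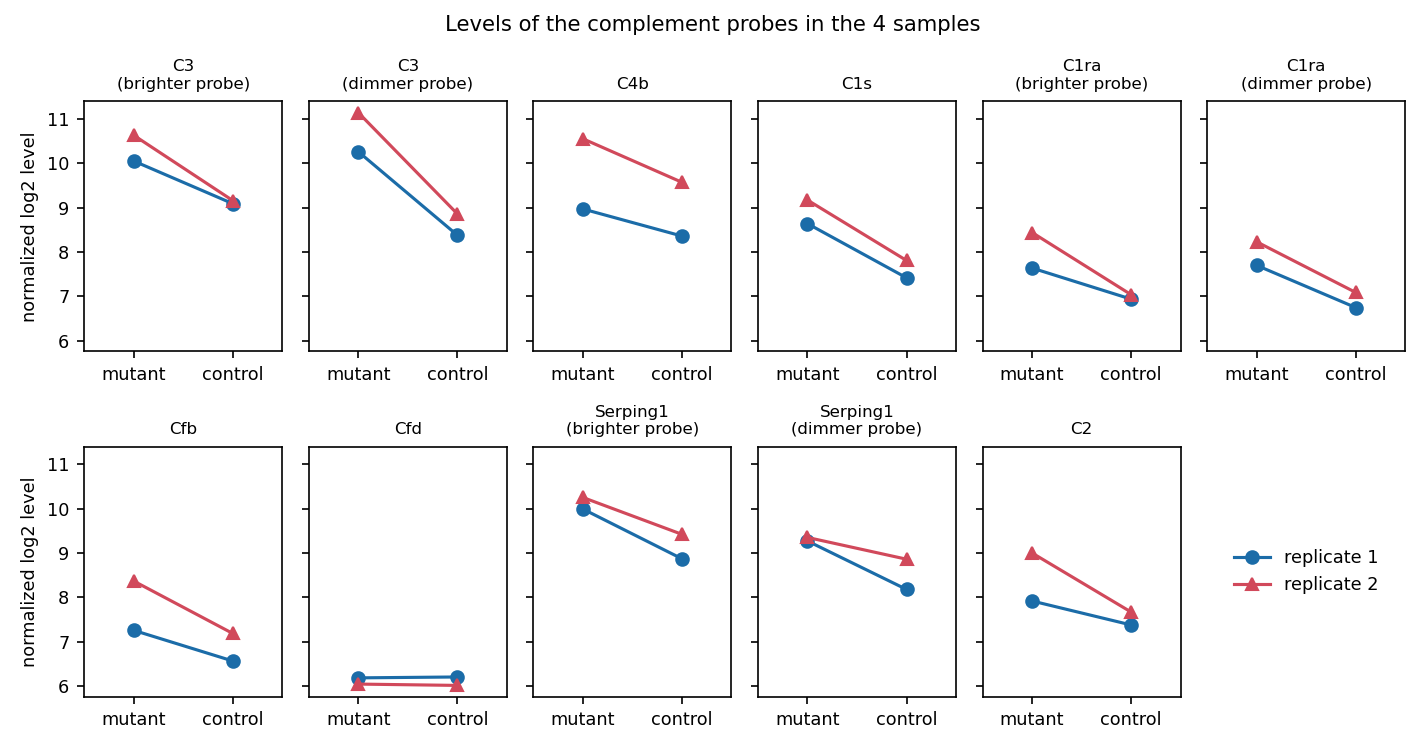
Normalized log2 level of each complement probe in the 4 samples, mutant left and control right, with a line for each pair on an array. Mutant samples lie above both control samples for 9 of the 10 tested probes, and the replicate 2 sample lies above the replicate 1 sample of its genotype for each of the 10.

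Levels of both mutant samples above both control samples were found for 9 of the 10 tested complement probes, a pattern that 22.2% of all tested probes had, and 15.6% had the opposite one. The replicates also differed. All 10 tested probes had a higher level in replicate 2 than in replicate 1 in mutant and in control samples, which held for 48.8% of all tested probes in the mutant samples and 47.0% in the control samples. In the mutant samples this difference ran from 0.08 for the junction probe of Serping1 to 1.58 for C4b. The ratio was larger on the replicate 2 array for 8 of the 10, against 52.0% of all tested probes. The 2 exceptions were the probes of Serping1. Within an array, the order of the genes by ratio thus differed: C2 had the lowest ratio of the 10 probes on the replicate 1 array and stood above both Serping1 probes, C4b, Cfb and the dimmer C1ra probe on the replicate 2 array.

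Markers of stromal cells, which make C3, C1s, C1r and C1 inhibitor in many tissues, were also higher. All 12 of the listed stromal markers were higher in the mutant on both arrays, with 7 that rose (Col1a1, Col1a2, Col3a1, Col5a1, Dcn, Lum and Thy1) and medians of 1.41 and 1.26. The log2 of their summed level was 13.52 and 14.89 in the mutant samples, against 11.14 and 13.06 in the control samples. Of all tested probes 32.4% were higher and 25.3% lower on both arrays, shares that apply to the later lists too. Col1a1, a fibrillar collagen gene, had log2 levels of 10.18 and 12.33 in the mutant samples, against 7.53 and 10.19 in the control samples. Its groups overlapped narrowly, and those of Col6a3 overlapped as well, while for the other 10 stromal markers both mutant samples lay above both control samples. Dcn, the decorin gene, had log2 levels of 11.35 and 11.81 in the mutant samples, against 8.65 and 9.92 in the control samples.

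The hepatocyte list was high in the mutant sample of replicate 2. Of its 12 genes 6 were tested and none passed (limma), with medians of 0.56 and 2.01 on the arrays of replicates 1 and 2, and 4 of the 6 were higher on both. The log2 of the summed level of all 12 genes was 12.63 and 14.05 in the mutant samples, against 11.78 and 12.06 in the control samples. Serpina1a, an alpha-1-antitrypsin gene, had ratios of 0.60 and 4.12 on its brighter probe (mean 2.36; 1.06 on the other probe), and Alb, the albumin gene, 1.00 and 2.70. For Alb the control sample of replicate 1 was not well above background, so its ratio of 1.00 is inexact. Ahsg, the fetuin gene, had ratios of 0.35 and 3.23 and Fgb, a fibrinogen chain gene, 0.02 and 2.42, both below the brightness filter on the replicate 1 array. Ambp, which was bright in all samples, had ratios of 1.26 and 0.70. Its log2 level was 12.16 and 11.81 in the mutant samples, against 10.89 and 11.12 in the control samples. It thus made up much of the summed level in replicate 1. Every tested complement gene except Serping1 had its larger ratio on the array where Serpina1a did. That was the replicate 2 array, which had the larger ratio for 52.0% of all tested probes. On the replicate 1 array the ratios of the tested hepatocyte genes ran from -0.13 to 1.26, with a median of 0.56. Those of the complement probes ran from 0.54 to 1.88. The part of stromal or hepatocyte RNA in the complement ratios was not tested.

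**Figure D3:**
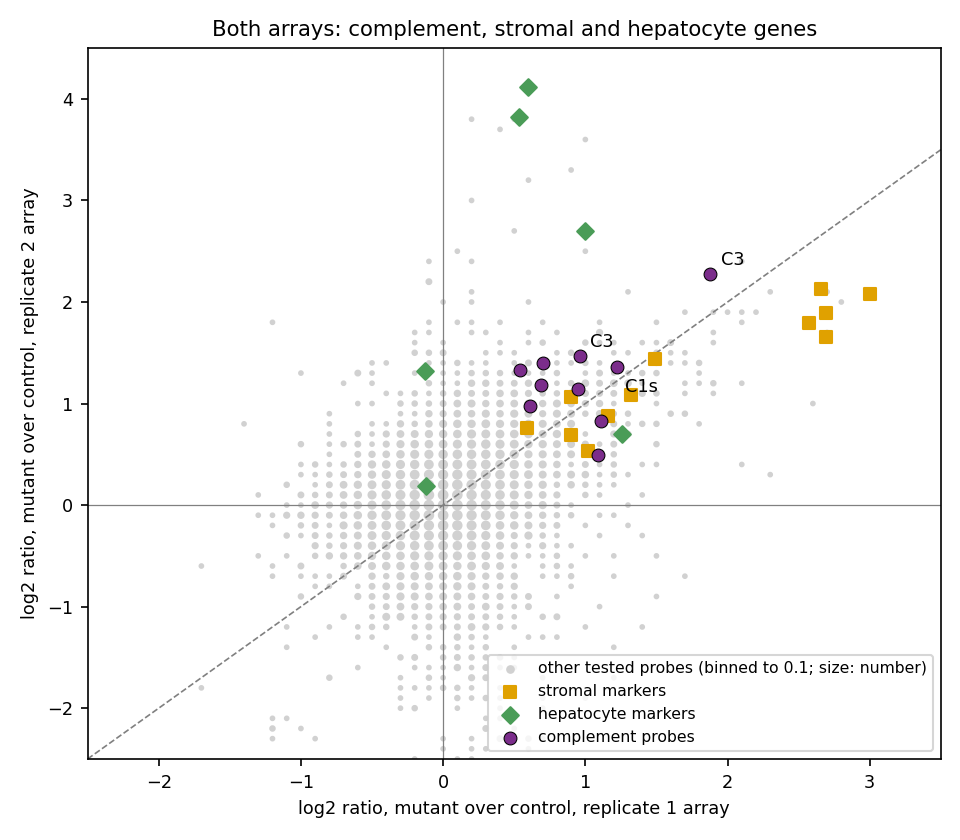
Log2 ratio of mutant over control on the replicate 1 array (x) against the replicate 2 array (y) for the 10 tested complement probes, the tested stromal and hepatocyte markers and all other tested probes in grey, with the line of equal ratios dashed; 89 probes beyond the axes, 37 of them acinar or Reg, are not drawn. Complement probes lie between 0.54 and 1.88 on x and between 0.49 and 2.28 on y, most stromal markers lie below the dashed line, and 2 hepatocyte markers reach 3.82 and 4.12 on y.

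Macrophages are the main source of C1q in tissues. The C1q genes had ratios of -0.31 and 0.67 for C1qa, 0.12 and 0.40 for C1qb and 0.16 and 0.64 for C1qc, and none passed (limma adjusted p = 0.852, 0.578 and 0.447). Over 11 macrophage markers 9 were tested, 7 were higher and 1 was lower on both arrays, and none passed, with medians of 0.16 and 0.43. The log2 of the summed level of all 11 markers was 11.53 and 11.55 in the mutant samples, against 11.57 and 11.30 in the control samples. Beta cell markers had medians of -0.36 and 0.36, endothelial markers 0.40 and 0.58 with 1 of 8 that rose (Vwf), and duct markers 0.59 and 0.81 with 2 of 6 that rose (Spp1 and Tspan8). Of the mesothelial markers 1 of 6 was tested, Msln, with ratios of -0.10 and 0.61. Schwann cell markers had medians of 0.57 and 0.45, markers of other leukocytes -0.01 and -0.09, and those of other endocrine cells 1.41 and 0.20, and none of these passed.

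The other genes of the pathway that are reported here had smaller median ratios. Of 48 such genes 46 were on the array and 21 were tested, 12 of them higher and 3 lower on both arrays. Their medians were 0.12 and 0.49. None of the 21 passed (limma), and 9 had an unadjusted p under 0.05, all of them higher in the mutant. Of all tested probes 8.16% had such a p and were higher.

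Of 9 tested complement regulators 4 were higher and 3 lower on both arrays. Cfi, which encodes the protease factor I, had ratios of 0.68 and 1.42, and neither control sample was well above background. Over the mean of both arrays Cfi was 1.68-fold higher in the mutant by normalized levels. For this value, dim control levels were raised to the lowest level well above background. It is not a lower bound, because undetected levels can lie higher, as those of Mbl2 in the control samples did (6.44 and 6.56). A difference between the dyes could also shift the value. Cd59a, which blocks the membrane attack complex on cells, had ratios of 0.58 and 1.36 (limma adjusted p = 0.168), and Clu, the clusterin gene, 0.50 and 0.54 (limma adjusted p = 0.241). Vtn, the vitronectin gene, had ratios of -0.07 and -1.83, and Cpn1, a subunit gene of the carboxypeptidase that inactivates anaphylatoxins, -0.07 and -0.57. Cr1l, the membrane inhibitor Crry of rodents, had ratios of 0.04 and -0.07.

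In the classical and lectin list 4 of 6 tested genes were higher on both arrays and none passed. Colec11, a collectin gene, had ratios of 0.62 and 0.65 and Mbl2, the gene of a mannose-binding lectin made in liver, 0.26 and 1.18. For these genes neither control sample was well above background. By the same calculation as for Cfi the mutant was 1.43-fold higher for Colec11 over the mean of both arrays. This is not a lower bound either. For Mbl2 the calculation only returned its mean ratio, 1.65-fold, because both control levels lay above the lowest level well above background. Masp1, Masp2, Mbl1 and Fcna were below the brightness filter. Of the alternative and terminal list 3 of 8 were tested, and none passed. Cfp, the properdin gene, had ratios of 0.32 and 0.52, C8b 0.36 and 1.81, and C8g -0.51 and 0.49. The terminal genes C6, C7, C8a, C9 and Hc, which encodes C5, were below the filter. Of the receptors 3 of 7 were tested, the integrin genes Itgam, Itgax and Itgb2, and none passed, with medians of 0.10 and 0.17. The anaphylatoxin receptor genes C3ar1, C5ar1 and C5ar2 were below the filter.

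**Figure D4:**
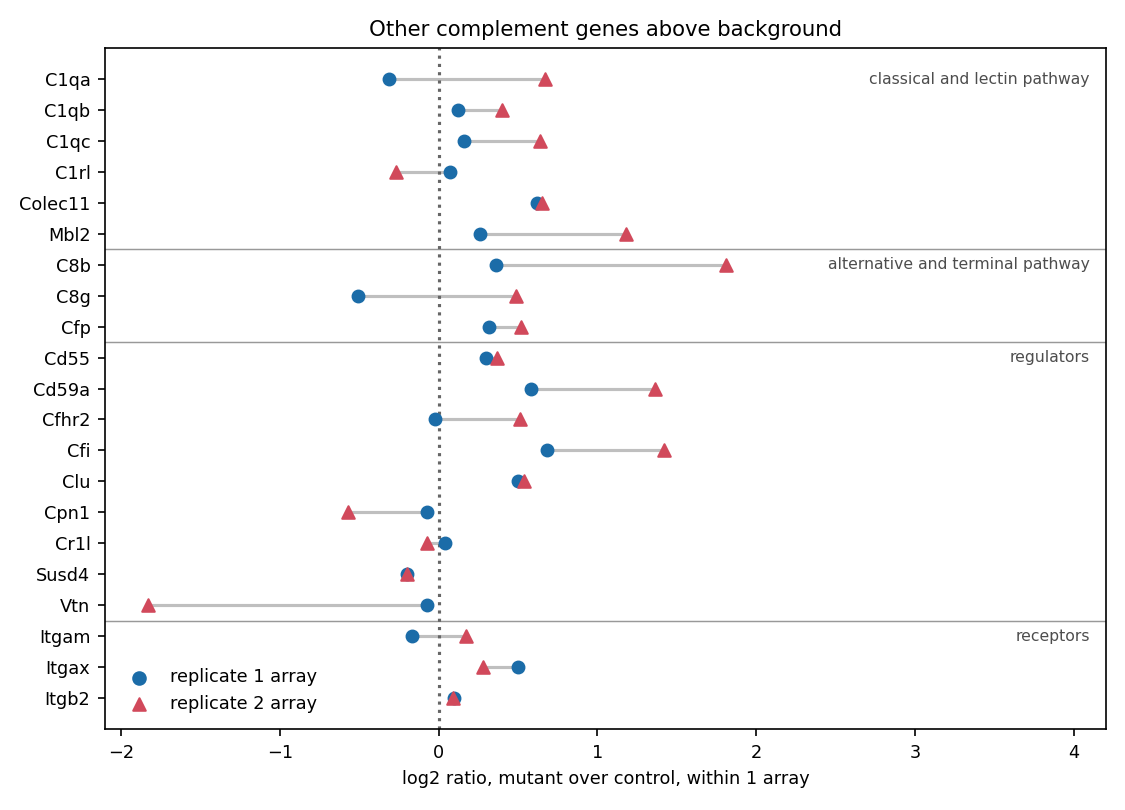
Log2 ratios of mutant over control for 21 tested complement genes outside the set of 8, by role, with the replicate 1 array as circles and the replicate 2 array as triangles. Cfi lies at 0.68 and 1.42, C8b reaches 1.81 on the replicate 2 array, and Vtn lies farthest to the left, at -1.83 on the replicate 2 array.

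Cfb, C2 and C4b are neighbours in the class III region of the MHC on chromosome 17, and most of the genes between and around them had ratios near 0. The C2 probe lies 6.1 kb and the C4b probe 128.2 kb from the Cfb probe (mm9). The 3 complement probes had medians of 0.61 and 1.18. Within 250 kb of the Cfb probe 30 other probes were tested, with medians of -0.02 and -0.06 (means from -0.54 to 0.90), 7 of them higher and 11 lower on both arrays and none past the test (limma). Nelfe, 1.9 kb from Cfb, had ratios of 0.08 and 0.14, and Hspa1a, a heat shock protein gene, -0.70 and -0.38. Tnxb, the tenascin X gene next to C4b and a matrix gene of fibroblasts, had ratios of 0.49 and 0.54. Ddah2 had the highest values of the neighbours, with ratios of 0.80 and 0.99 (limma adjusted p = 0.0777), and was named for its mean ratio by the rule for lists. Nelfe was named for its position after its values were seen.

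**Figure D5:**
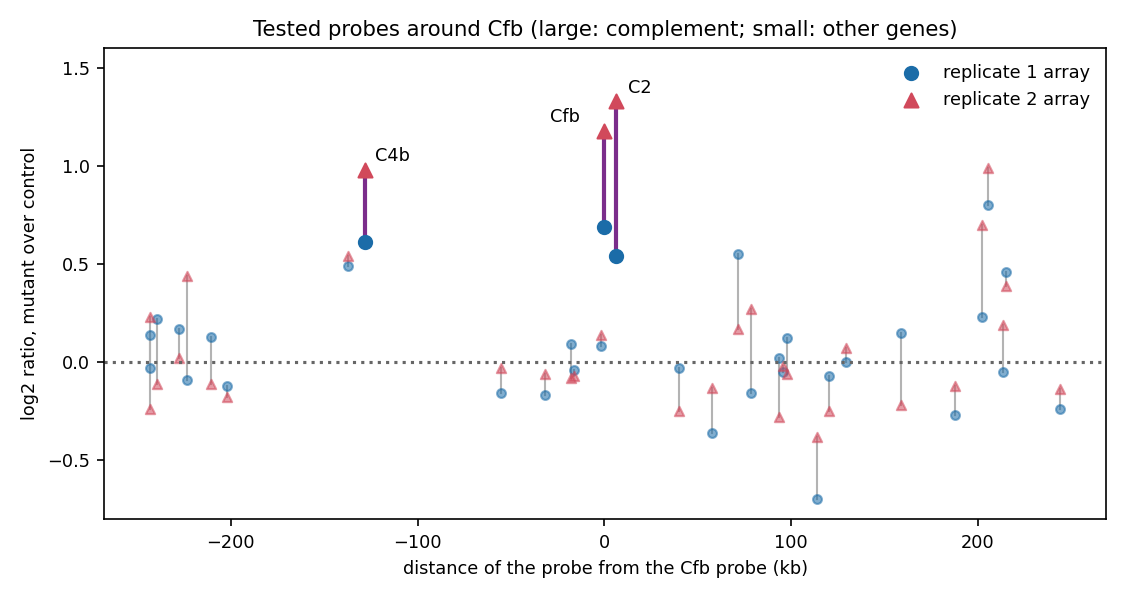
Log2 ratio of mutant over control (y) of each tested probe within 250 kb of the Cfb probe, by its distance in kb (x), with circles for the replicate 1 array, triangles for the replicate 2 array and large symbols for complement genes. Cfb, C2 and C4b lie between 0.54 and 1.33, and the other probes have medians of -0.02 and -0.06.

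Interferons and acute phase cytokines induce several of these complement genes in cultured cells and in liver. Of 21 interferon response genes 18 were tested, 14 were higher and none lower on both arrays, and none passed (limma), with medians of 0.29 and 0.56. Of all tested probes 32.4% were higher and 25.3% lower on both arrays. Isg15 had ratios of 0.62 and 0.96, Gbp2 0.58 and 0.84 and Gbp3 0.68 and 0.64. Of 21 acute phase and NF-kB genes 11 were tested and none passed, with medians of 0.22 and 0.20. Vcam1, an adhesion molecule gene, had ratios of 0.84 and 1.02 (limma adjusted p = 0.0721), Cebpd, a C/EBP factor gene, 2.12 and 0.43, and Socs3, the feedback inhibitor gene of cytokine signalling, -1.17 and -0.65. Saa3 and Il6 were not well above background in any sample.

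The 5 genes whose levels over the 4 samples were most like the mean of the 7 tested complement genes, among 17097 tested genes, were Onecut1, Emp2, Plekhs1, Ly6a and Arrb1. Likeness was the distance between log2 levels that were centred on each gene's own mean, and it ran from 0.0632 for Onecut1 to 0.105 for Arrb1. The centred complement mean was 0.09 and 0.94 in the mutant samples and -0.74 and -0.28 in the control samples. Ly6a had log2 levels of 9.64 and 10.39 in the mutant samples, against 8.79 and 9.29 in the control samples. Onecut1, a transcription factor gene of liver and pancreatic duct, had log2 levels of 8.99 and 9.85 in the mutant samples, against 8.24 and 8.66 in the control samples. None of the 5 passed the test (limma adjusted p from 0.0645 for Emp2 to 0.0961 for Plekhs1).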

How the data were processed

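RNA of mouse pancreatic islets was hybridised to two-colour arrays. Per the submitters' processing notes the software was Agilent Feature Extraction, version 10.7.3.1, and probe positions refer to mm9 in the file headers. The intensity values the authors deposited hold spot means and local background medians, and signals that the software corrected and dye-normalized, per the file headers. The deposited log10 ratios are red (mutant) over green (control), per the file headers, and the series matrix holds the same values. The medians of its columns were 0 and 0, in log10 units. The deposited flags, other values of 0 or 1, mark spots well above background.

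Intensities were corrected by normexp (offset 50) and loess (span 0.3, control spots at weight 0) in limma 3.58.1 under R 4.3.3. The offset understates the fold changes of dim probes, and loess assumes that most probes are alike in both channels. Non-uniform spots (4 per array) were left out, 0 gene spots were saturated, and spots of a probe were averaged. Levels are log2 values after quantile scaling of brightness between arrays. The 2 ratios of each of 22266 probes were tested against 0 (lmFit, then eBayes; two-sided), and p-values were adjusted over all of them by Benjamini and Hochberg. A probe alone leaves 1 residual degree of freedom, and the shared prior contributes 4.90 with an SD of 0.204. The step was tested on simulated ratios. The rule for named genes took the members and, in each list, genes past the threshold and up to 4 with the largest mean ratios of 1 sign on both arrays. Other genes that are named, such as C1qa, C8g, Cr1l and those below the brightness filter, were chosen for their role or position after their values were seen. List probes were named through RefSeq's table (26762 by accession, 3819 by symbol, 634 by synonym), and the brightest tested probe stood for a gene. Of the listed genes 2 are not reported here, and the list counts and medians leave them out. Members and lists were chosen with earlier results of these data known. Alternatives varied the background, scaling, filter, prior, pairing and arrays.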

Additional observations from a re-analysis of the deposited data

How the results depend on the processing

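Every tested complement probe kept its direction in all alternatives that were run, and 0 of 118 probe values changed sign. Many of these values could not change sign. Fits that altered only the filter, the prior, the probes tested or the pairing kept the mean ratios of the main fit. Those without 1 replicate repeat the ratios of single arrays given above. New mean ratios came only from the processed signals, the fit without the offset, median centring and the series matrix. The number that passed depended on the processing. Of the 10 tested probes 2 passed, and 0 passed with the scanner software's processed signals, without the offset, with the ratios of the series matrix, with a trended and robust prior, with separate channels without the array as a block, and with the array as a block by intraspot correlation (chosen after the data were seen, because duplicateCorrelation gave no value with 4 values a probe). At an unadjusted p under 0.05 these settings gave 10, 10, 10, 10, 8 and 9 of the 10. Of all tested probes, in either direction, they gave 10.6, 11.1, 10.6, 9.62, 6.76 and 9.95%. With the processed signals the mean ratio was 1.85 for Cfb (0.93 in the main setting), 1.95 and 1.71 for the dimmer and brighter probes of C1ra (1.04 and 1.05), 1.77 for C1s (1.29) and 2.31 for the 10-spot probe of C3 (2.08), with limma adjusted p from 0.228 to 0.246. Without the acinar and Reg genes 5 passed, without a brightness filter 8 of 11, and with median centring 10. Over the whole array 172 of 22224, 324 of 55673 and 6660 of 22266 probes rose in these settings, in that order. Median centring moved the median of all tested probes to 0.395 and 0.842 on the arrays of replicates 1 and 2, and the complement median to 1.62, which is 0.99 above that of all probes (0.96 in the main setting). The complement median was 0.97, with 1.33 without replicate 1 and 0.70 without replicate 2, ratios of 1 array with no test. Of the other pathway genes reported here 0 passed, against 12 with median centring and 0 in the other alternative fits. With median centring 6660 of all 22266 tested probes rose, so that count is not particular to these genes. The cause of these differences was not tested.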
